A study of Rattus norvegicus with 180 samples.

Results

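The mucosa of the ileum was compared with that of the jejunum in a rat organ atlas of microRNAs (miRNAs) measured on one-colour Agilent arrays. The comparison used 6 of the 180 arrays of the series, chosen by the organ and animal number in the sample titles: ileum from rats 4, 5 and 6, and jejunum from the same 3 rats. All were untreated male Sprague-Dawley rats aged 10 weeks whose vessels had been flushed with saline before the organs were taken. Intestinal samples were mucosal epithelial tissue scraped off the gut wall, according to the study's methods, so epithelium, the leukocytes that live in the mucosa and any muscle that came with the scrape were measured together. Each sample gave 1 array, hybridised with Cy3-labelled total RNA, and the replicates were separate animals. Both organs of a rat were on the same slide and scanned on the same day, so each rat's difference lies within a slide, while rat, slide and scan day cannot be told apart.

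The jejunum and ileum are the middle and last segments of the small intestine. Their lining is a single layer of epithelial cells in which miR-192, miR-194 and miR-215 are abundant, and the tissue below holds many leukocytes, which also gather in lymphoid follicles (Peyer's patches). Leukocytes are known for miR-142, miR-150, miR-223, miR-146 and miR-342. miR-10 and miR-196 genes lie inside the HOX gene clusters, which set position along the body axis, and tend to be active in the same stretches of the body as the HOX genes beside them.

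The sequences of the miRNAs on which the comparison turns are given first, from RefSeq (build GRCr8), 5′ to 3′, with the seed in capitals. The seed is bases 2 to 8, by which a miRNA finds most of its targets. The array names are older than the RefSeq names, and a name without an arm was matched to the arm it has stood for (miR-196a to miR-196a-5p). Of 16 names looked up, 15 were found, and miR-150 is named only. The miR-196 genes lie in 3 HOX clusters: Mir196a at chr7:135988900-135988921 between Hoxc10 and Hoxc9, Mir196c at chr10:81727561-81727582 between Hoxb13 and Hoxb9, and Mir196b at chr4:82661149-82661170 between Hoxa9 and Hoxa10. Mir10a at chr10:81779730-81779752 lies between Hoxb5 and Hoxb4, and Mir10b at chr3:80035886-80035907 lies within Hoxd4.
miR-196a: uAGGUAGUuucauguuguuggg
miR-196c: uAGGUAGUuucguguuguuggg
miR-196b: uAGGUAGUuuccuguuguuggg
miR-10a-5p: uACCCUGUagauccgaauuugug
miR-10b: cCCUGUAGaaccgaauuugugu
The 3 miR-196 sequences share 1 seed and differ at a single position, counted from 1 at the 5′ end (A12G from miR-196a to miR-196c, A12C from miR-196a to miR-196b). miR-10a-5p and miR-10b are entered with different starts, so their listed seeds are shifted against each other.

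The epithelial and leukocyte sequences are shown for the same reason.
miR-192: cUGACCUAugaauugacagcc
miR-215: aUGACCUAugauuugacagaca
miR-194: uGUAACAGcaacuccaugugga
miR-142-3p: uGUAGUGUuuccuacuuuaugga
miR-142-5p: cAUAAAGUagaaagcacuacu
miR-223: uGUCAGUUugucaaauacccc
miR-146a: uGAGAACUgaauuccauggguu
miR-146b: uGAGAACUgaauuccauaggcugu
miR-342-3p: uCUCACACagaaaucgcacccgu
miR-192 and miR-215 share a seed and differ at 3 positions over their shared length (C1A, A12U and C20A from miR-192 to miR-215). miR-146a and miR-146b also share a seed. Mir192 and Mir194-2 lie side by side on chromosome 1, at chr1:212994232-212994252 and chr1:212994038-212994059. Mir215 and Mir194-1 lie side by side on chromosome 13, within Iars2, at chr13:99383003-99383024 and chr13:99382730-99382751.

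Detection of a miRNA required that the scanner placed more than 50% of its spots well above background. Ileum arrays detected 162 to 168 of the 717 miRNAs and jejunum arrays 151 to 160. Before scaling, the 75th percentile signal was 1.23, 1.38 and 1.24 times as bright in ileum as in jejunum in rats 4, 5 and 6. The epithelial marker miR-215 matched the labels of the 2 organs, with its highest means among 55 organs of perfused rats in duodenum, jejunum and ileum, in that order. The lymphocyte marker miR-150 was low in both, ranking 31st in jejunum and 45th in ileum. Red blood cell, pancreatic acinar and hepatocyte miRNAs (8 names) were detected on none of the 6 arrays.

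Of 155 miRNAs tested (detected on all 3 arrays of ileum or on all 3 of jejunum), 3 were called higher in ileum than in jejunum (1.94%) and 0 lower (0%). The test was limma with the spread taken from the 18 arrays of 6 intestinal segments and rat as a block, at an adjusted p under 0.05 (Benjamini-Hochberg). At an unadjusted p under 0.05, 14 were higher and 12 lower. The called miRNAs were miR-196c, miR-196a and miR-10a-5p, all from HOX clusters. The first 2 were undetected in jejunum and tested only because of their ileum signal. The median log2 difference over all 155 was -0.15, and 113 differed by less than 0.5, so most of the mucosal profile differed little between the 2 segments. Signals of 19 miRNAs were higher in ileum in all 3 rats (12.3%) and those of 49 were lower in all 3 (31.6%). The arrays of the 2 organs did not overlap for 13 miRNAs higher in ileum (8.39%) and 25 lower (16.1%).

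The number of calls rested on which arrays gave the spread and on the pairing by rat. With only the 6 arrays, paired by rat, limma called 14 higher (9.03%) and 11 lower (7.1%). Without the pairing the same 6 arrays gave 4 higher (2.58%) and 3 lower (1.94%). With all arrays of perfused rats, blocked by rat, limma called 15 higher (9.68%) and 13 lower (8.39%). The paired fit of 6 arrays and the fit of all perfused arrays shared 13 of the higher calls, or 13 of 14 and 13 of 15, and 10 of the lower calls, or 10 of 11 and 10 of 13. The median standard error was 0.23 in the 18-array and in the 6-array fit, and 76 of 155 were wider with 18 arrays, among them those of all tested leukocyte (8), epithelial (5), HOX (5) and smooth muscle (6) miRNAs, while the 6 arrays alone leave 2 residual degrees of freedom. With so few, limma draws each standard error toward a spread shared by all tested miRNAs. With all perfused arrays, most of the spread comes from other organs. So a p from either fit is only in part a measure of how much a miRNA varied between the rats. For neighbouring segments, which share arrays with this comparison, the same 18 arrays gave 21 calls of 149 tested between jejunum and duodenum (14.1%) and 67 of 162 between cecum and ileum (41.4%).

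**Figure D1:**
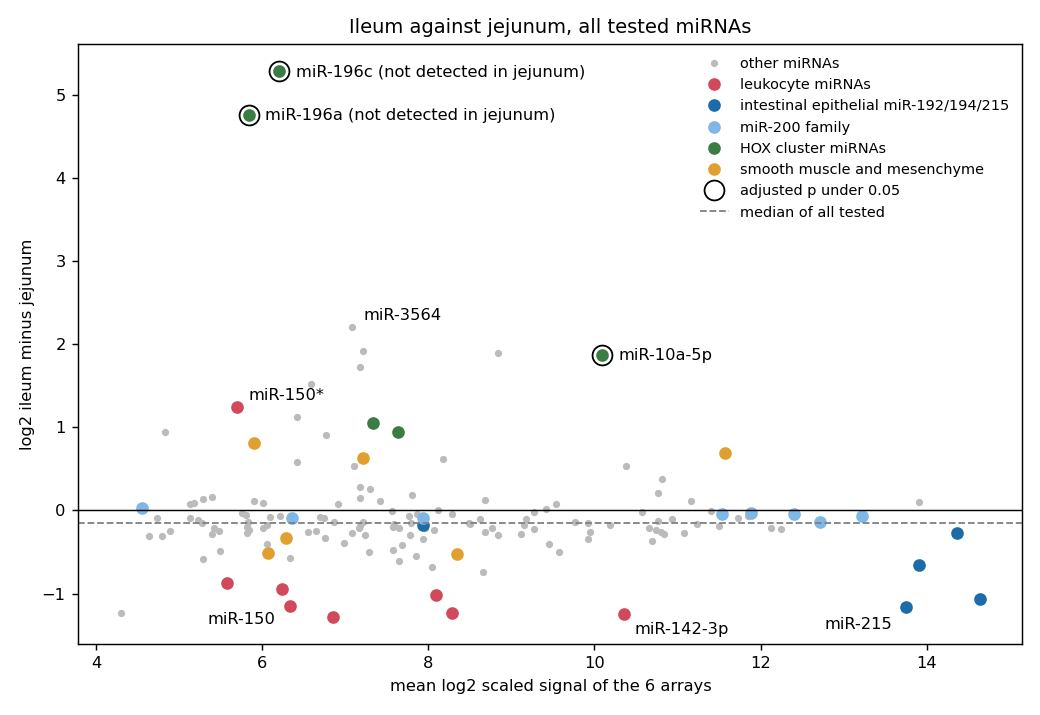
Difference between ileum and jejunum (log2, vertical) against the mean log2 scaled signal of the 6 arrays (horizontal) for the 155 tested miRNAs, 1 point each, with lists in colour and the 3 called miRNAs circled. miR-196c and miR-196a are drawn against jejunum signals at or near the floor, so their heights are not measured differences (bounds 23.1-fold and 14.9-fold). miR-10a-5p is at 1.87, 7 of the 8 leukocyte miRNAs lie below 0, and the miR-200 family lies near 0.

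miR-196a and miR-196c went from undetected in the jejunum to clear signal in the ileum. miR-196c had a scaled signal of 458, 584 and 363 in the ileum of rats 4, 5 and 6, and of 14.1, 7.15 and 10.6 in the jejunum. Each ileum array was far above each jejunum array, and the jejunum signals were not well above background on any of the 3 arrays. Since the jejunum gives only a bound, miR-196c was at least 23.1-fold higher in ileum (limma adjusted p = 1.74e-08). Both miR-196c and miR-196a passed the detection filter through ileum alone. Their p rests on jejunum signals at or near the floor set for low values. So the bounds and not the fitted values describe the difference, and these calls are not given as support. miR-196a had signals of 284, 369 and 249 in ileum and of 10.8, 7.15 and 11.3 in jejunum, where it was again detected on 0 of 3 arrays. It was at least 14.9-fold higher in ileum (limma adjusted p = 4.7e-08). All 4 probe sequences for miR-196c and both for miR-196a were higher in ileum. Whether a probe for one also picks up the other, 1 base away, was not tested. Both calls were lost with a normexp background correction that adds an offset of 50 to every signal (adjusted p = 0.112 for miR-196c and 0.374 for miR-196a, each the highest over the alternatives, which went down to 2.67e-51 and 4.73e-40). The lowest log2 differences over the alternatives were 1.78 for miR-196c and 1.33 for miR-196a, so the bounds hold for the main processing only.

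miR-10a-5p, on the same chromosome as miR-196c, was present in both segments and more abundant in ileum. Its signals were 1918, 2404 and 1996 in the ileum of rats 4, 5 and 6 and 450.4, 471 and 878 in the jejunum. The lowest ileum array was above the highest jejunum array, which was that of rat 6. The mean difference corresponded to 3.67-fold (log2 1.87 ± 0.40 SE, limma adjusted p = 0.0224, between 3.79e-07 and 0.504 over the alternatives). This call did not survive leaving out rat 5 (log2 1.64, adjusted p = 0.504) or rat 6 (log2 2.22, adjusted p = 0.0606). It was also lost with normexp (adjusted p = 0.0727), with scaling over all miRNAs (0.0607), with the filter for detection on all 6 arrays (0.0595) and with no filter (0.223).

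No other HOX cluster miRNA was called with 18 arrays, while miR-10b and miR-196c* were called higher both with the 6 paired arrays and with all perfused arrays. miR-10b had signals of 184, 323 and 207 in ileum and 87.6, 95.3 and 166 in jejunum. The groups did not overlap, with rat 6 giving the smallest difference (log2 1.05 ± 0.34 SE, adjusted p = 0.164, and 0.00306 and 0.00526 in the other 2 fits). Over the alternatives the log2 difference of miR-10b ran from 0.40 to 1.42 and its limma adjusted p from 0.00306 to 0.785. miR-196b was detected in ileum on 2 of 3 arrays, with signals of 25.9, 55.1 and 30.9, and on none in jejunum, so it was not tested. The passenger strand miR-196c*, unlike miR-196c, was detected on all jejunum arrays. It had 340.0, 453 and 137 in ileum and 357, 165 and 49.8 in jejunum, overlapping between organs, with no difference in rat 4 (log2 -0.07) and 1.46 in both other rats (adjusted p = 0.329, and 0.0106 and 0.000481 in the other 2 fits). In those 2 fits the spread is largely shared over miRNAs or taken from other organs, so these p do not measure how the rats differed. Over the 5 tested members of the HOX list, 3 were called higher (1.94% of all tested) and 0 lower, with miR-196a and miR-196c tested only because of their ileum signal, and 5 were called higher in each of the other 2 fits (9.03% and 9.68%). The median log2 difference was 1.87 beside -0.15 for all tested miRNAs. These counts and this median include miR-196a and miR-196c, so they are a description and not support. With the filter for detection on all 6 arrays, which removes both, the median was 1.05 and none was called. The remaining 4 members besides miR-196b (miR-10a-3p, miR-10b*, miR-196a* and miR-196b*) were detected on none of the 6 arrays.

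Along the intestine, all 3 miR-196 members were undetected in duodenum and jejunum and detected in ileum, with miR-196b dim there. miR-196a averaged 6.66 ± 1.51 in duodenum and 9.74 ± 2.26 in jejunum, both below the floor, then 301 ± 61.9 in ileum, 299 ± 88.8 in cecum and 189 ± 71.5 in rectum (SD, n = 3), with overlapping arrays between neighbours from ileum to rectum. miR-196c had its highest mean of all 55 organs in ileum (468 ± 111) and stayed between 273 ± 109 and 348 ± 84.3 further on. miR-196b was only 37.3 ± 15.6 in ileum and reached 830.4 ± 375 in cecum, its highest mean among the 55 organs. miR-10a-5p was 399.7 ± 209.8 in duodenum and 600.0 ± 241 in jejunum, which overlap, then 2106 ± 261 in ileum, 2268 ± 1060.5 in cecum, 3137 ± 219.8 in colon and 963 ± 285 in rectum. miR-10b had higher means from segment to segment between duodenum (52.8 ± 24.5), jejunum (116 ± 43.3), ileum (238 ± 74.7), cecum (861 ± 50.8) and colon (1519.8 ± 169), but only 80.6 ± 19.1 in rectum. These levels are a description without a test.

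**Figure D2:**
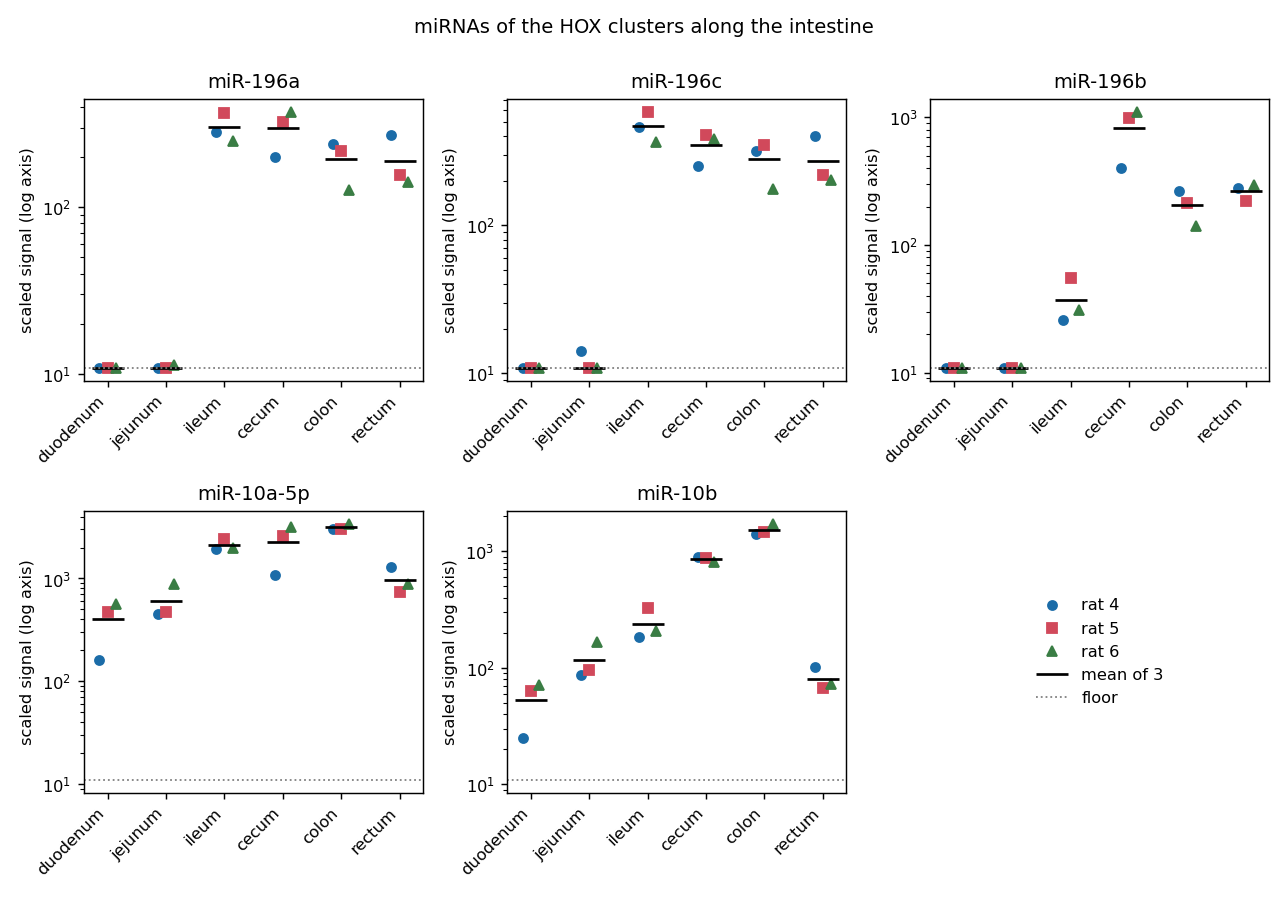
Scaled signal (log axis) of 5 HOX cluster miRNAs in 6 intestinal segments, with 1 symbol per rat, a bar for the mean of 3 and a dotted line for the floor, at which lower signals are drawn. miR-196a and miR-196c are at or near the floor in duodenum and jejunum and average 301 and 468 in ileum, whereas miR-196b averages 37.3 in ileum and 830.4 in cecum.

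Most leukocyte miRNAs had lower signals in ileum, a difference called in some fits and not in others. Of 11 list members, 8 were tested: 0 were called in either direction in the 18-array fit, and 7 were lower in ileum in all 3 rats, by 1.83- to 2.42-fold, where 31.6% of all tested miRNAs were lower in all 3. The list's median log2 difference was -1.08, beside -0.15 for all tested miRNAs. Their unadjusted p ran from 0.0149 to 0.072 and their adjusted p from 0.177 to 0.34, with standard errors of 0.34 to 0.59. With only the 6 paired arrays the same 7 were called lower, beside 7.1% of all tested miRNAs (adjusted p 0.000195 to 0.0106, standard errors 0.23 to 0.25), and so they were with all perfused arrays, beside 8.39% (6.09e-05 to 0.0134). The 6-array standard errors lie near the median of all tested miRNAs (0.23). In both fits the p reflect only in part each miRNA's own spread over the rats. The remaining tested member, miR-150*, was called higher in both of these fits (limma adjusted p = 0.000253 and 4.33e-05), beside 9.03% and 9.68% of all tested miRNAs. With the 6 arrays and no pairing, 0 of the 8 were called. An unblocked fit of all perfused arrays was not run. In these bulk samples, fewer leukocytes and less of the miRNA per leukocyte cannot be told apart.

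miR-142-3p, made in all blood cell lineages, had 429, 1062 and 1352 in the ileum of rats 4, 5 and 6 and 1467, 2069 and 2709.6 in the jejunum. Every ileum array was below every jejunum array, although rat 6 ileum came close to rat 4 jejunum (log2 -1.25 ± 0.58 SE, adjusted p = 0.296, 0.000253 to 0.75 over the alternatives). The other arm of the same hairpin, miR-142-5p, gave the same picture, with 39.7, 91.4 and 113 in ileum and 130.5, 183 and 245 in jejunum (log2 -1.28 ± 0.59 SE). Both arms rank the rats alike in both organs, with rat 4 lowest and rat 6 highest.

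miR-150, typical of mature B and T lymphocytes, had 51.0, 74.6 and 41.7 in ileum and 87.7, 122 and 161 in jejunum. It was well above background on 2 of 3 ileum arrays and on all jejunum arrays. The groups did not overlap, and the difference was largest in rat 6 (log2 -1.15 ± 0.58 SE, adjusted p = 0.34, 0.00119 to 0.785 over the alternatives). Neither segment was rich in it: jejunum reached 2.52% and ileum 1.14% of the mesenteric lymph node mean of 4899 ± 482. For miR-142-3p the corresponding shares of the mesenteric node mean (18123 ± 3201) were 11.5% in jejunum and 5.23% in ileum.

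miR-223, typical of myeloid cells, had 148, 254 and 186 in ileum and 288, 416 and 486 in jejunum, without overlap (log2 -1.02 ± 0.38 SE, adjusted p = 0.179). miR-146a, induced by inflammatory signalling, had 131, 279.7 and 232 in ileum and 348, 540.0 and 585 in jejunum, again without overlap (log2 -1.23 ± 0.44 SE, adjusted p = 0.177). The related miR-146b was dimmer and overlapped between organs, with 26.9, 49.7 and 32.9 against 46.1, 61.9 and 95.0 (log2 -0.87 ± 0.34 SE, adjusted p = 0.21). miR-342-3p had 47.2, 77.3 and 43.8 in ileum and 90.6, 115 and 109 in jejunum, without overlap (log2 -0.94 ± 0.36 SE, adjusted p = 0.198). In the miR-181 family, high in thymocytes but also made elsewhere, 0 of 4 were called (1.94% of all tested higher, 0% lower), and the median log2 difference was -0.15, with miR-181a at 144 to 245 in ileum and 216 to 253 in jejunum. Along the gut, miR-142-3p averaged 2428 ± 745 in duodenum, 2082 ± 621 in jejunum, 948 ± 472 in ileum, 2392 ± 1251 in cecum, 1899 ± 1278 in colon and 257 ± 122 in rectum, so of the 6 segments only rectum had a lower mean than ileum.

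**Figure D3:**
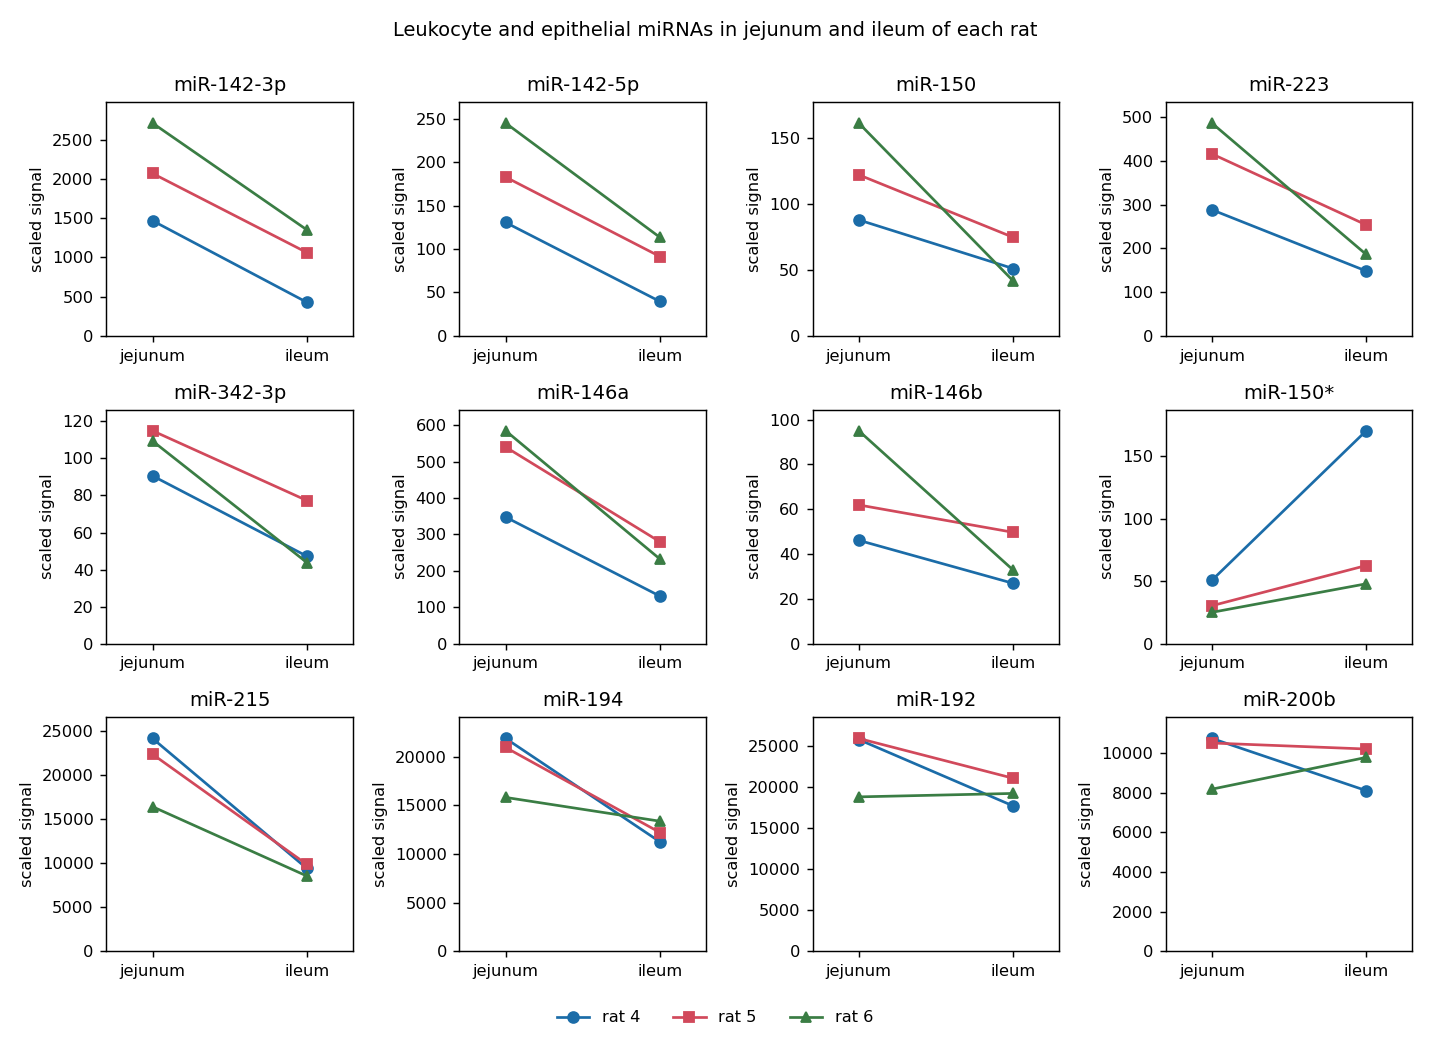
Scaled signal in jejunum and ileum of each rat (1 line per rat, vertical axis from 0) for 8 leukocyte miRNAs, 3 epithelial miRNAs and miR-200b. Lines fall from jejunum to ileum in all 3 rats for 7 leukocyte miRNAs, miR-215 and miR-194, climb for miR-150*, and go both ways for miR-192 and miR-200b.

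The passenger strand miR-150* went the other way from miR-150. It had 170.1, 62.4 and 47.8 in ileum and 50.7, 30.3 and 25.0 in jejunum (log2 1.24 ± 0.34 SE, adjusted p = 0.114, with log2 0.13 under normexp). In both organs it was highest in rat 4, where miR-142 was lowest. Its mean was 93.5 in ileum and 35.3 in jejunum, against 34.1 in mesenteric lymph node, where miR-150 itself was highest, so it did not follow its hairpin partner across organs. miR-188 behaved like it, with 608, 247 and 158 in ileum and 122, 67.8 and 52.8 in jejunum (log2 1.92 ± 0.61 SE, adjusted p = 0.164, with log2 0.85 to 2.09 over the alternatives). So did 6 further probes chosen after their values were seen: miR-3564, miR-483*, miR-211*, miR-3593-3p, miR-1249 and miR-328a*. The log2 differences of these 8 were 0.90 to 2.20 and their adjusted p 0.114 to 0.419. miR-150* was named as a member of the leukocyte list, and its calls in the other fits are given above. The others were chosen for being higher in ileum, so their calls in the other fits are not counted. All 8 were highest of the 6 arrays in rat 4 ileum, and all 8 were higher in rat 4 than in the other jejunum arrays. Before scaling, ileum arrays were also brighter than jejunum arrays, as given above, but the rats did not rank alike. The brightness ratio was largest in rat 5 (1.38, against 1.23 in rat 4). The 75th percentile was highest in rat 6 in both organs (1189 in ileum and 958 in jejunum, against 980 and 796 in rat 4). The part of brightness in these differences was not tested.

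Among epithelial miRNAs, miR-215 was lower in ileum. It had 9415, 9870.4 and 8553 in the ileum of rats 4, 5 and 6 and 24175, 22378 and 16422 in the jejunum. The groups lay far apart, with tight values in ileum (9279 ± 669 against 20991 ± 4058, SD, n = 3), or 2.24-fold. It was not called in the 18-array fit (log2 -1.16 ± 0.41 SE, adjusted p = 0.177, 9.9e-07 to 0.542 over the alternatives), and was called in the paired fit of 6 arrays (adjusted p = 0.00035). A second probe set for it, named miR-215_v15.0, gave 16472, 18391 and 18047 in ileum and 40728, 39733 and 31125 in jejunum (log2 -1.07 ± 0.42 SE). miR-215 was 30074 ± 13251 in duodenum and 339 ± 171 in cecum, so the jejunum and ileum lie on a fall from the proximal end of the small intestine to the cecum.

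miR-194, which is made from both the miR-192 and the miR-215 loci, lay between miR-192 and miR-215 in its difference. It had 11243, 12204 and 13365 in ileum and 21865, 20936 and 15808 in jejunum, without overlap (log2 -0.66 ± 0.38 SE, adjusted p = 0.419), but quantile normalization left no difference (log2 0.0). miR-192, which shares its seed with miR-215, had 17735, 21108 and 19253 in ileum and 25822, 25959 and 18834 in jejunum, overlapping because of rat 6 (log2 -0.27 ± 0.36 SE, adjusted p = 0.71, and log2 0.59 under quantile normalization). Its passenger strand miR-192* was also close, at 218 to 242 in ileum and 227 to 298 in jejunum (log2 -0.18 ± 0.34 SE). Within arrays, the log2 ratio of miR-215 to miR-192 was lower in ileum by a mean of 0.89 ± 0.08 (SD over 3 rats, change between -0.97 and -0.82), so these seed partners changed unequally. Of 5 tested list members, 0 were called with 18 arrays (0% of all tested), 2 were called lower with the 6 paired arrays (7.1%), which are the 2 probe sets of miR-215 and so 1 miRNA, and 3 with all perfused arrays (8.39%), which adds miR-194. Signals of 3 were lower in all 3 rats (31.6% of all tested), and the median log2 difference was -0.66.

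The general epithelial miR-200 family, which maintains the epithelial state, differed little between the segments. All 8 tested members had log2 differences between -0.13 and 0.02 and none was called. miR-200b had 8104, 10202 and 9778 in ileum and 10734, 10504 and 8177 in jejunum, with complete overlap (log2 -0.06 ± 0.27 SE, turning to 0.34 under quantile normalization). Against miR-200b on the same array, miR-142-3p was lower in ileum in each rat, by a mean log2 change of -1.18 ± 0.23 (SD, n = 3). For miR-150 the same change was uneven over the rats, at -1.08 ± 0.98 (SD, n = 3, between -2.21 and -0.38). miR-375 and miR-96, of endocrine and sensory-type cells, also differed little, at log2 -0.01 ± 0.30 and 0.02 ± 0.28 SE, as was miR-203 of stratified epithelium (-0.12 ± 0.22 SE).

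**Figure D4:**
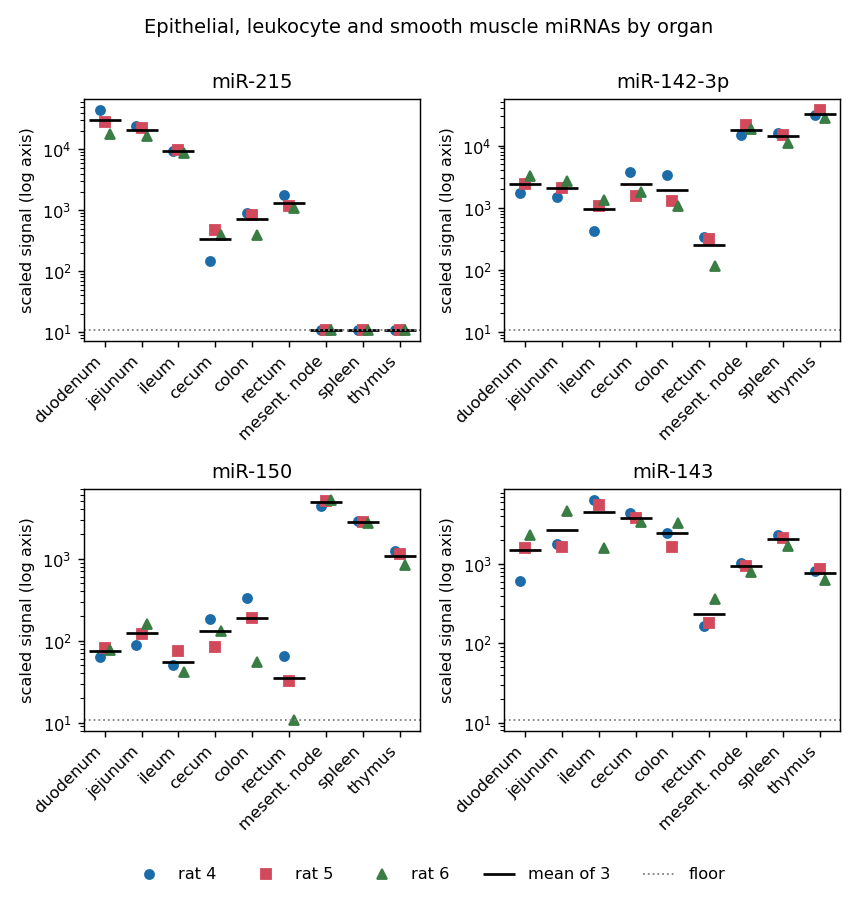
Scaled signal (log axis) of miR-215, miR-142-3p, miR-150 and miR-143 in 6 intestinal segments, mesenteric lymph node, spleen and thymus, with 1 symbol per rat, a bar for the mean of 3 and a dotted line for the floor. miR-215 goes from 30074 in duodenum to 9279 in ileum and is at the floor in lymphoid organs, and miR-150 averages 123 in jejunum and 55.8 in ileum against 4899 in the mesenteric node.

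Of the 6 tested miRNAs of the smooth muscle and mesenchyme list, 0 were called and 0 differed the same way in all 3 rats. miR-143, abundant in smooth muscle and fibroblasts, had 6476, 5489 and 1618 in ileum and 1780.1, 1632 and 4727 in jejunum. It was higher in ileum in rats 4 and 5 and higher in jejunum in rat 6. miR-145 from the same transcript and miR-133b, both named after their values were seen, switched in the same rat, and miR-145 had 144, 98.1 and 35.0 in ileum and 34.3, 23.9 and 110.5 in jejunum. The fitted log2 differences of these were 0.69 for miR-143, 0.82 for miR-145 and 0.63 for miR-133b. The other 3 tested members, of mesenchymal cells, had values below 0, at -0.52 for miR-199a-3p, -0.51 for miR-199a-5p and -0.33 for miR-214. The list's summed signal over 11 members ran from 2061 to 7450.3 in ileum and from 2228 to 5995 in jejunum, and the median log2 difference of the 6 tested was 0.96 in rat 4, 1.07 in rat 5 and -1.57 in rat 6. The stromal miR-125b-5p switched as well (524, 558 and 155 against 186, 179.9 and 378). The leukocyte list's median was -0.95, -0.71 and -1.33 in the same rats, and that of the HOX list 2.09, 2.35 and 1.46. The HOX medians include miR-196a and miR-196c, tested only because of their ileum signal, so they are a description and not support. The part of muscle or stroma in the leukocyte and HOX differences was not tested. Endothelial miR-126 was lower in ileum in all 3 rats, most in rat 6 (175, 269 and 192 against 266, 282 and 503, adjusted p = 0.442).

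**Figure D5:**
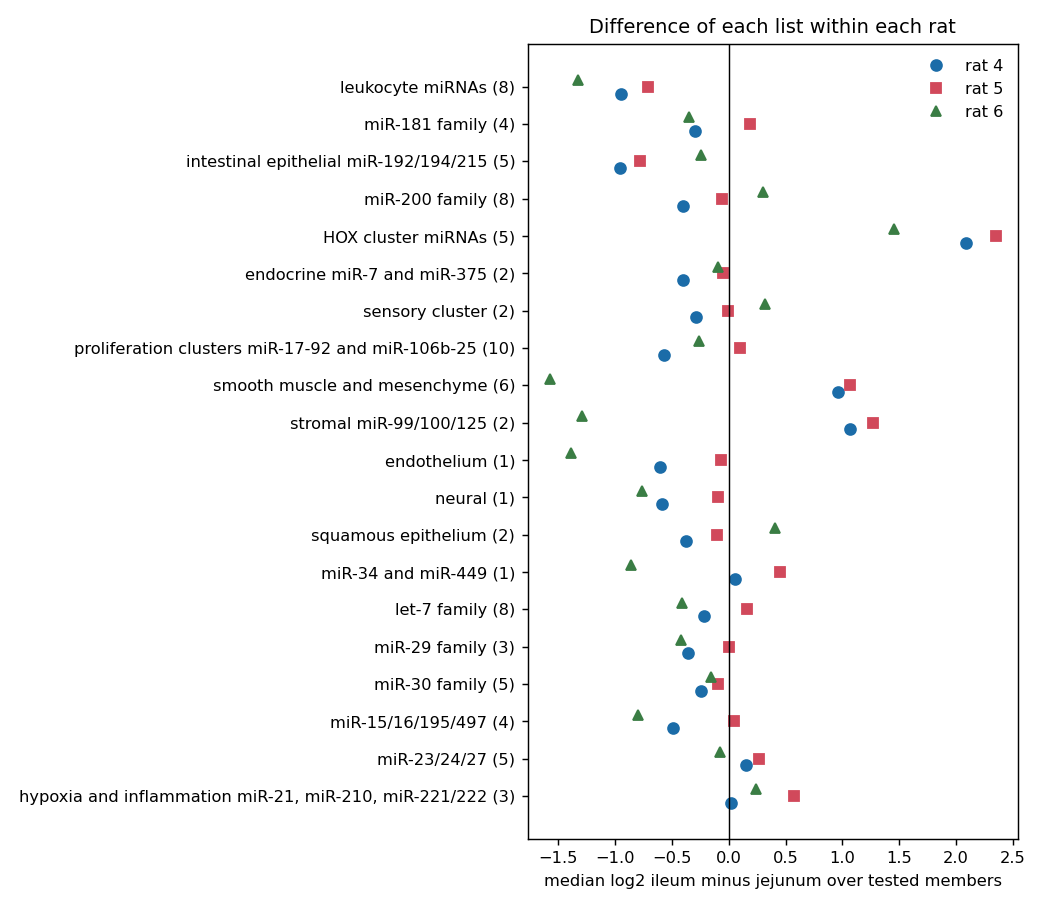
Median log2 difference between ileum and jejunum over the tested members of each list (number in brackets), with 1 symbol per rat. The HOX list is above 0 and the leukocyte list below 0 in all 3 rats, and the smooth muscle list is at 0.96 and 1.07 in rats 4 and 5 and at -1.57 in rat 6. The HOX medians include miR-196a and miR-196c, tested only because of their ileum signal.

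Outside these lists, the miRNAs not called with 18 arrays that had the smallest p and differed alike in all 3 rats included miR-221, which restrains the cell-cycle inhibitor p27. It had 99.8, 135 and 149 in ileum and 50.6, 66.3 and 58.2 in jejunum, without overlap (log2 1.12 ± 0.33 SE, adjusted p = 0.118), and had a log2 difference of 0.25 under normexp. miR-221 was picked by its p on these arrays, so its calls in the other fits are not given as support. In the other direction, the probe set miR-363_v15.0 was not well above background on any ileum array and was detected on all 3 jejunum arrays (26.8, 36.6 and 28.0), at least 1.69-fold higher in jejunum. It was tested only because of its jejunum signal, so its calls are not given as support, and a floor 4 times as high left no difference. miR-128 had 36.7, 47.0 and 31.4 in ileum and 55.3, 50.1 and 53.5 in jejunum (log2 -0.48 ± 0.18 SE, adjusted p = 0.179).

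The brightest signals in ileum were miR-192, miR-215_v15.0, miR-21, miR-194 and miR-200b, and in jejunum miR-215_v15.0, miR-192, miR-215, miR-194 and miR-21. Brightness also reflects the probe, so this is an order of signals and not of abundance. miR-21 had 13399 to 18502 in ileum and 13759 to 16305 in jejunum (log2 0.10 ± 0.27 SE). Log2 differences were -0.23 for let-7f and for miR-19b, -0.22 for miR-30b-5p, -0.18 for miR-16, -0.10 for miR-29b, -0.01 for miR-23b and -0.12 for miR-34a, none called. Over whole families, the 8 tested let-7 members lay between -0.23 and -0.06, the 3 of the miR-29 family between -0.50 and -0.10, the 5 of miR-23, miR-24 and miR-27 between -0.02 and 0.38, and the 4 of miR-15, miR-16, miR-195 and miR-497 between -0.61 and -0.18 (median -0.41, 1 called lower with all perfused arrays). In the miR-30 family all 5 tested members were lower in ileum in all 3 rats (31.6% of all tested), by log2 -0.28 to -0.10.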

How the data were processed

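The labels gave organ, animal number and perfusion, and samples were grouped by title. Total RNA (miRNeasy) was labelled with Cy3. The authors extracted spot intensities with Agilent Feature Extraction 10.7.3 and deposited them as processed signals, already background-subtracted, with a second table of intensities scaled by the authors to the 75th percentile.

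From the deposited intensities, outlier spots were dropped (2.22 to 2.87% on the 6 arrays), spots were averaged per probe and probes per miRNA (717), and arrays were brought to a common 75th percentile, computed from the 37 miRNAs that every one of the 180 arrays detected. Signals under a floor of 10.8 were set to it and log2 was taken. No miRNA spot was saturated. limma 3.58.1 (R 4.3.3) was fitted to 18 arrays with segment and rat as terms. In simulated data for this comparison (155 miRNAs), it recovered 6.75% of log2 changes of 0.5, 65.5% of 1 and 91.9% of 2. With 20 miRNAs changed per draw, false calls per draw were 0.23, 0.57 and 1.03 at these sizes. Noise was drawn independently for each miRNA, so sets of miRNAs that move together were not simulated. A permutation test over 3 pairs cannot go below p = 0.25 (exact, two-sided), so none is given for single miRNAs.

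The animals pair the organs. Same-rat deviations correlated at 0.53, 0.01 and 0.10 for rats 4, 5 and 6, and those of different rats at -0.52 to 0.40, the highest for rat 5 ileum with rat 6 jejunum. There were 20 alternatives. The one with normexp used the spot median and local background, the only raw signals in the files used here. An "at least" fold sets the brighter group's mean against, on each dim array, the higher of the lowest detected signal and the miRNA's own. Named miRNAs are the tested members of the leukocyte, epithelial and HOX lists, those called, 6 in each direction by smallest p among those alike in all 3 rats, the called or brightest member of each other list, and the 5 brightest in each organ; others are marked. The comparison, lists and tests were chosen with earlier results of these data known. Precision is limited by 3 arrays per organ.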

Additional observations from a re-analysis of the deposited data

How the results depend on the processing

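The HOX cluster, leukocyte and epithelial lists kept the sign of their median log2 difference under all 20 alternatives. The HOX list includes miR-196a and miR-196c, tested only because of their ileum signal, except with detection on all 6 arrays. Against 3 miRNAs higher and 0 lower, normexp background and a filter for detection on all 6 arrays, which removes miR-196a and miR-196c and leaves miR-10a-5p at an adjusted p of 0.0595, each gave 0 higher and 0 lower. The 6 arrays paired by rat gave 14 and 11, the 6 arrays without the replicate block 4 and 3, and all perfused arrays with the block 15 and 13, and the 18 arrays without the block gave 3 and 0, as did slide as a block. Scaling over all miRNAs, quantile normalization and the scanner's total signal each gave 1 lower. Leaving out a rat gave 2 to 4 higher and 0 to 1 lower, the 1 lower without rat 4. The leukocyte median (-1.08) was -0.70 with normexp and -1.27 to -0.80 without a rat. The epithelial median (-0.66) was -0.20 under quantile normalization and -0.87 to -0.51 without a rat. The HOX median (1.87) was 1.33 with normexp, 1.05 with detection on all 6 arrays, 1.00 with no filter, which adds undetected members, and 1.64 to 2.22 without a rat. Scaling moved the median of all tested miRNAs from -0.15 to between -0.31 (all miRNAs) and -0.09 (miRNAs detected on 18 arrays), so directions near 0 are not settled. Under quantile normalization the log2 difference was 0.59 for miR-192, 0.34 for miR-200b and 0.10 for miR-375. With scaling over the miRNAs of 18 arrays it was 0.00051 for miR-200b, 0.0498 for miR-375 and 0.0518 for miR-23b. Over all miRNAs it was -0.14 for miR-96 and -0.0630 for miR-21, and for miR-96 it was -0.0033 in the authors' table and -0.0149 with normexp. Leaving out a rat, the ranges that crossed 0 were -0.22 to 0.11 for miR-200b, -0.0742 to 0.084 for miR-375, -0.18 to 0.21 for miR-96, -0.31 to 0.0336 for miR-203, -0.40 to 0.25 for miR-34a, -0.18 to 0.0303 for miR-29b and -0.17 to 0.10 for miR-23b. None of these was called. No alternative was run for the neighbouring segments. The cause of these shifts was not tested.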
